A study of Homo sapiens with 6 samples.

Results

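Transcripts of 9 AP-1 and immediate-early genes were read from RNA sequencing of HEK293 cells, an established human embryonic kidney line, in which an shRNA targeted the splicing factor PRPF39. The members were taken by transcript ID, 1 transcript for each of FOS, FOSB, FOSL1, JUN, JUNB, JUND, EGR1, IER3 and DUSP1, and all 9 were present among the 203028 transcripts of each file. The study compared 3 libraries of cells carrying a scrambled control shRNA with 3 libraries of cells carrying a PRPF39 shRNA. Per the labels, cells of both groups had been given shRNA by lentivirus and selected with puromycin, and polyadenylated RNA was sequenced. Nothing in the labels tells whether replicates of a group came from separate infections or culture dishes, so each p-value reflects library-to-library spread that could be technical. The control group also carries a virus, an integrated construct and drug selection, and untreated cells are not part of the comparison.

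AP-1 is a dimeric transcription factor made of a JUN protein with another JUN or with a FOS protein. FOS proteins pair with JUN proteins to bind DNA, whereas JUN proteins can also pair with each other. FOS, FOSB, JUN, JUNB, EGR1, IER3 and DUSP1 are known as immediate-early genes, whose mRNAs appear within minutes of growth factors, serum or stress, without new protein synthesis, and mostly decay fast. FOSL1, which encodes FRA1, follows later and more lastingly in many cells, in part through AP-1 and ERK signalling.

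The JUN genes differ from the others in having no introns, so their mRNAs need no splicing. In RefSeq (GRCh38.p14) the locus was longer than the deposited transcript by 10 bases for JUNB and 66 bases for JUND, and for JUN the deposited transcript was 283 bases longer than the RefSeq locus. Among the spliced genes the locus exceeded the transcript by 105 bases for IER3, 687 for EGR1, 1081 for DUSP1, 1245 for FOS, 3409 for FOSB and 6828 for FOSL1. FOS lies on chromosome 14 from 75278828 to 75282230 and FOSL1 on chromosome 11 from 65892049 to 65900545. JUN lies on chromosome 1 from 58780791 to 58784047, and JUNB and JUND both lie on chromosome 19.

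Upstream sequence from RefSeq was matched by symbol for 7 of the 9 genes, the exceptions being FOSL1 and IER3. The 250 bases before the start are shown for FOS, whose transcript had the lowest fold change of the 9, for its relative FOSB, and for EGR1 and DUSP1, which hold other elements known from immediate-early genes. Letters in capitals mark matches on either strand to the cAMP response element TGACGTCA or its first 5 letters TGACG (seen as CGTCA on the other strand), to the CArG box, the letters bound by serum response factor, or to TATAAA. The short form lies within the full element, so each full match is also a match to the short form. All are in GRCh38.p14, written 5′ to 3′ along the gene.
FOS (chr14:75278578-75278827, plus strand): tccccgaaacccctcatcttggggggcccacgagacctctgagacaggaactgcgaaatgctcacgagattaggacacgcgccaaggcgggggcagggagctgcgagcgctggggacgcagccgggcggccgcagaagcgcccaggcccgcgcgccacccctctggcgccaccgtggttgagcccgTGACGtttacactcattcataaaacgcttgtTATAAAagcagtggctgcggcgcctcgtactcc
FOSB (chr19:45467746-45467995, plus strand): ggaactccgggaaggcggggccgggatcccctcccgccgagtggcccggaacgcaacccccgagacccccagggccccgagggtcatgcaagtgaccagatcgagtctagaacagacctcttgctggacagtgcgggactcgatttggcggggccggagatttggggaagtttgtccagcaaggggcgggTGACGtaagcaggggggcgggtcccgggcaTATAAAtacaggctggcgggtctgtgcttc
EGR1 (chr5:138465229-138465478, plus strand): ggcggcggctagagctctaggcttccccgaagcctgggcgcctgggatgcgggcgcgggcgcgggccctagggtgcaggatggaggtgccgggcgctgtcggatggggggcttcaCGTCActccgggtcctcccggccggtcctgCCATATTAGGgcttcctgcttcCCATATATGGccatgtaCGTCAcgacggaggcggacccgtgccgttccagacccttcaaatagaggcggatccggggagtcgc
DUSP1 (chr5:172771196-172771445, minus strand): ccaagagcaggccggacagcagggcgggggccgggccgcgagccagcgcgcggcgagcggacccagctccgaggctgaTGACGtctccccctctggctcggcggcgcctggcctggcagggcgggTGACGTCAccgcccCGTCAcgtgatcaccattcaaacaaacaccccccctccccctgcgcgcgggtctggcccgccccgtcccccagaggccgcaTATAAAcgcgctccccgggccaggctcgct

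All 7 windows held TGACG, against 21.2% of 35116 upstream windows of the same 250 bases. The JUN window is counted by the RefSeq start, and it may not lie upstream of the deposited JUN transcript, which is longer than the RefSeq locus. The other 6 windows all held TGACG. In FOS and FOSB it stood at a similar distance from the start, 64 to 60 bases and 60 to 56 bases before it, and TATAAA followed downstream in both. TATAAA also followed TGACG in JUNB and DUSP1, and 10.7% of all windows held TATAAA. The full element TGACGTCA was found in JUND and DUSP1 only, against 1.65% of all windows. EGR1 held the CArG boxes CCATATTAGG and CCATATATGG, and 1.16% of all windows held at least 1 such box. TGACTCA or TGAGTCA, the AP-1 site itself, was in none of the 7 windows and in 4.2% of all. These matches describe the letters in the window and say nothing about binding in these cells. Sequence farther upstream was not searched, so a window without a match does not mean a gene without the element.

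Within the FOS family the transcripts of FOS and FOSL1 stood on opposite sides of control. FOSL1 rose 3.51-fold in mean TPM with PRPF39 shRNA, and FOS stood 3.45-fold below control without passing the test over all transcripts. The JUN family showed no called change. TPM measures reads per base of effective length, scaled to the same total in every library, and is used here wherever levels of different genes are compared. Because the cells were sequenced in bulk, fewer cells expressing a gene and less RNA per cell cannot be told apart.

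**Figure D1:**
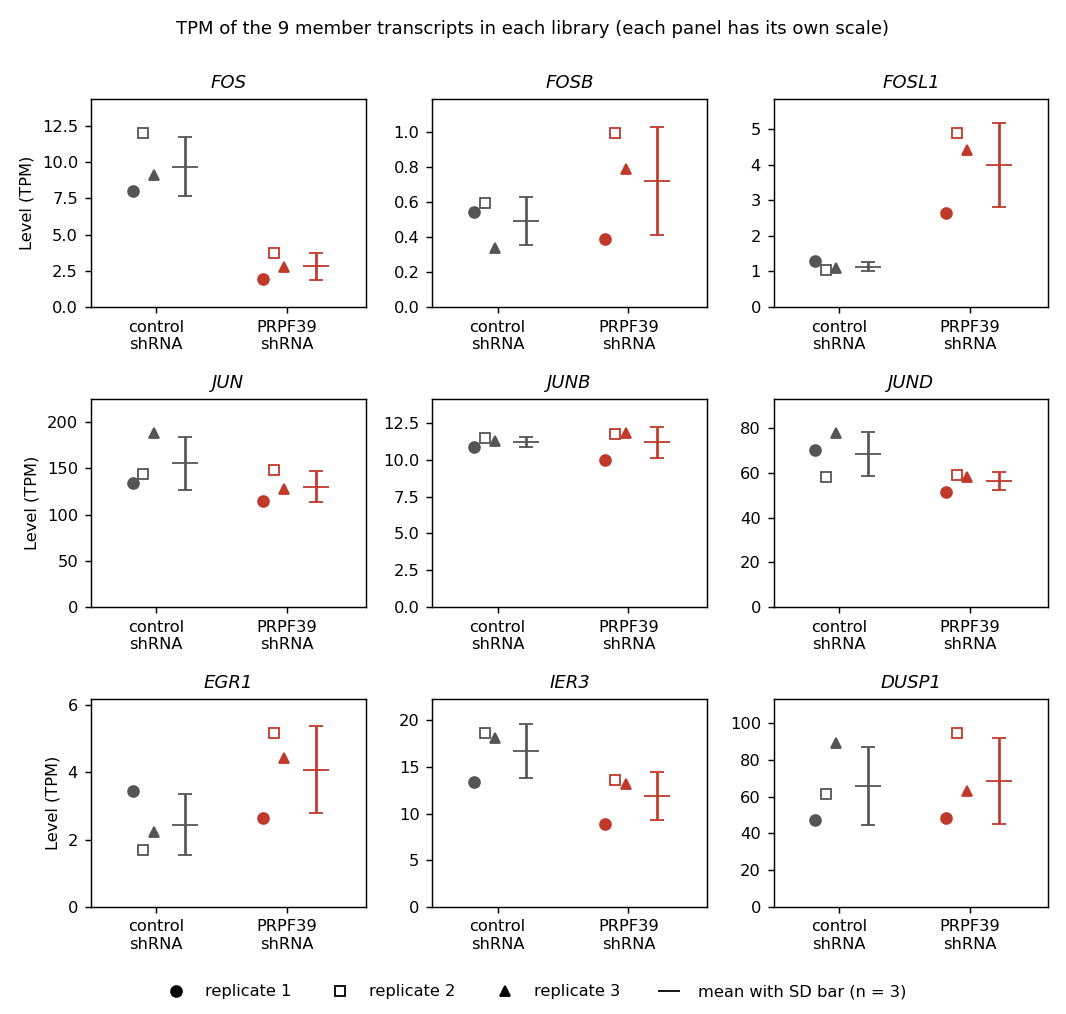
Level in TPM (vertical axes, each from 0 with its own scale) of the 9 member transcripts in the 3 control shRNA (grey) and 3 PRPF39 shRNA (red) libraries; symbols mark replicate numbers, and the horizontal mark with its bar is the mean with SD. In TPM the groups are apart for FOS and FOSL1 and overlap for the other 7, and PRPF39 shRNA replicate 1 is the lowest of its group in every panel. The share over all transcripts was counted in CPM only, where 25.3% of those tested and 3 of the 9 members did not overlap.

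The FOSL1 transcript (ENST00000312562, 1669 bases) was measured at 1.28, 1.03 and 1.09 TPM in control replicates 1, 2 and 3 and at 2.64, 4.87 and 4.42 TPM in PRPF39 shRNA replicates 1, 2 and 3. All PRPF39 shRNA libraries were above all controls, and the controls lay close together. The means were 1.13 ± 0.134 and 3.98 ± 1.18 TPM (SD, n = 3 each). FOSL1 encodes FRA1, a FOS-type partner of JUN proteins that lacks the strong C-terminal activation domain of FOS. The fitted log2 change of read counts was 1.79 ± 0.26 (SE; 95% interval 1.17 to 2.40), and FOSL1 passed edgeR's quasi-likelihood test with an adjusted p of 0.0422. FOSL1 was the only member called higher, where 0.443% of all 97571 transcripts tested were. The call was lost whichever library was left out, with adjusted p (edgeR) of 0.0963, 0.138 and 0.128 without control replicates 1, 2 and 3 and 0.0644, 0.137 and 0.183 without PRPF39 shRNA replicates 1, 2 and 3. Over all transcripts, 0 to 14 were called higher in those 6 fits, against 432 with no library left out. The log2 change of FOSL1 stayed between 1.58 and 2.01 in those 6 fits, and with limma-voom on all 6 libraries the adjusted p was 0.0506. FOSL1 passed in 7 of the 15 alternatives that gave a value. Among them was DESeq2 (adjusted p = 5.1e-09, where 9.25% of all tested were called). It also passed in edgeR with RLE scaling, upper-quartile scaling, effective-length offsets or no filter beyond 1 read. On log2(TPM + 1) and log2(TPM + 0.1) limma gave adjusted p of 0.0459 and 0.0398.

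The FOS transcript (ENST00000303562, 2158 bases) was measured at 7.993, 11.996 and 9.132 TPM in control replicates 1, 2 and 3 and at 1.90, 3.76 and 2.79 TPM in PRPF39 shRNA replicates 1, 2 and 3. The groups did not overlap, with the highest PRPF39 shRNA library below the lowest control. The means were 9.71 ± 2.06 and 2.82 ± 0.928 TPM (SD, n = 3 each). FOS encodes the founding partner of JUN in AP-1, and its mRNA is among the shortest-lived known. The log2 change was -1.84 ± 0.33 (SE; 95% interval -2.62 to -1.06), with an adjusted p of 0.0653 in edgeR's quasi-likelihood test, just outside the threshold of 0.05. No member was called lower in that test, where 0.461% of all transcripts were. FOS passed in 5 of the 16 alternatives. Among them was edgeR on transcripts of at least 5 CPM (CPM, counts scaled to library size). There the adjusted p was 0.00902, where 17.7% of 20216 transcripts were called. FOS averaged 16.8 CPM in control and 4.70 CPM with PRPF39 shRNA, so it met the 5 CPM filter through the control group. DESeq2 gave an adjusted p of 1.15e-06, where 9.25% of all tested were called. The other passes came from limma-voom (adjusted p = 0.0496, where 0.898% were called) and from limma on log2(TPM + 1) and log2(TPM + 0.1) (adjusted p = 0.0285 and 0.0328, where 1.01% and 1.03% were called). With 1 library left out the adjusted p (edgeR) was 0.0863 to 0.242.

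FOSB, a close relative of FOS in sequence and in its induction, was the least abundant member. Its transcript (ENST00000353609, 3775 bases) was at 0.544, 0.594 and 0.337 TPM in control replicates 1, 2 and 3 and at 0.387, 0.994 and 0.789 TPM in PRPF39 shRNA replicates 1, 2 and 3. The groups overlapped, because PRPF39 shRNA replicate 1 lay below 2 of the 3 controls. The log2 change was 0.52 ± 0.41 (SE; 95% interval -0.46 to 1.497, edgeR adjusted p = 0.603), an interval that includes no change and a doubling. FOSB was read from 213 to 707 estimated reads per library, so counting error was small beside the spread between libraries.

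The make-up of the FOS family in TPM thus differed between the groups in every library. The family here means the 3 member transcripts, and other FOS-type genes such as FOSL2 were not analysed. FOS held 81.4%, 88.1% and 86.5% of the summed family TPM in control replicates 1, 2 and 3 and 38.6%, 39.0% and 34.9% in PRPF39 shRNA replicates 1, 2 and 3. FOSL1 held 13.1%, 7.56% and 10.3% in the controls and 53.6%, 50.6% and 55.3% with PRPF39 shRNA. FOSL1 was therefore the largest share in each PRPF39 shRNA library and FOS in each control library. FOSL1 over FOS was 0.161, 0.0858 and 0.119 in control and 1.39, 1.30 and 1.59 in PRPF39 shRNA replicates 1, 2 and 3. The mean ratio was 0.122 ± 0.0375 for control and 1.42 ± 0.147 for PRPF39 shRNA (SD, n = 3 each). With PRPF39 shRNA, FOS and FOSL1 were both lowest in replicate 1 and both highest in replicate 2, whereas among the controls replicate 2 had the most FOS and the least FOSL1. The summed family was 9.82, 13.6 and 10.6 TPM in control and 4.928, 9.624 and 8.001 TPM with PRPF39 shRNA. Those sums lay apart by a narrow margin, 9.62 against 9.82 TPM. Shares and sums over members are given as descriptions, without a test.

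**Figure D2:**
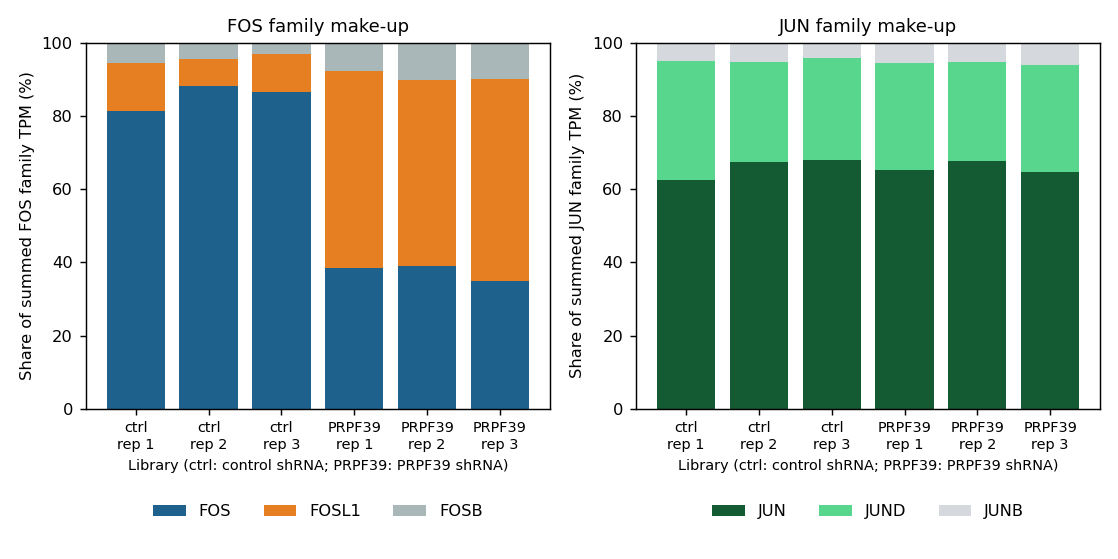
Share of the summed TPM of the 3 member transcripts of each family (vertical axes, percent) held by each in the 6 libraries. The left panel shows FOS, FOSL1 and FOSB and the right panel JUN, JUND and JUNB. FOS takes 81.4% to 88.1% of its family in control and 34.9% to 39.0% in PRPF39 shRNA libraries, while JUN takes 62.4% to 67.9% of its family over all 6.

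JUN was the most abundant member in all libraries. JUN encodes c-Jun, the main partner of FOS proteins and a target of JUN N-terminal kinases. Its transcript (ENST00000371222, 3540 bases) was at 134, 144 and 188 TPM in control replicates 1, 2 and 3 and at 115, 148 and 128 TPM in PRPF39 shRNA replicates 1, 2 and 3. The groups overlapped, and control replicate 3 was the highest of the 6. For JUN the log2 change was -0.29 ± 0.19 (SE; 95% interval -0.73 to 0.16, edgeR adjusted p = 0.512).

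JUNB, a weaker activator than JUN that can oppose it, had the nearest group means of the JUN family. Its transcript (ENST00000302754, 1820 bases) was at 10.9, 11.5 and 11.3 TPM in control replicates 1, 2 and 3 and at 10.01, 11.80 and 11.81 TPM in PRPF39 shRNA replicates 1, 2 and 3. Both groups averaged 11.2 TPM, and the PRPF39 shRNA libraries lay on either side of the controls. The log2 change was -0.04 ± 0.13 (SE; 95% interval -0.36 to 0.27, edgeR adjusted p = 0.911), and its sign turned with some alternatives.

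JUND, which is expressed in most resting cells and is less dependent on stimuli than its relatives, was the second most abundant of the family. Its transcript (ENST00000252818, 1863 bases) was at 70.05, 58.02 and 77.65 TPM in control replicates 1, 2 and 3 and at 51.56, 58.98 and 57.98 TPM in PRPF39 shRNA replicates 1, 2 and 3. In TPM the groups overlapped through control replicate 2. In CPM, scaled for library size and composition, they did not, with 103, 105 and 127 in control and 82.9, 96.2 and 87.7 in PRPF39 shRNA libraries. The log2 change of -0.33 ± 0.11 (SE; 95% interval -0.59 to -0.07) did not pass the test over all transcripts (edgeR adjusted p = 0.218).

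Of the 3 intronless transcripts 0 were called, where 0.904% of all transcripts tested were called in either direction (edgeR), so this count sets them apart from no other transcripts. Their log2 changes ran from -0.33 to -0.04, against -1.84 to 1.79 for the 3 spliced FOS family transcripts and -0.53 to 0.73 for EGR1, IER3 and DUSP1. The median absolute log2 change was 0.29 in the JUN family, 1.79 in the FOS family and 0.52 over the 9 members, beside 0.40 over all transcripts tested and 0.25 over those averaging 5 CPM or more. The JUN family transcripts are all above 5 CPM, and their median is slightly above that of transcripts at that abundance. In the fit as reported the smallest absolute change of the 9 was that of DUSP1, which is spliced, with a 95% interval of -0.80 to 0.82. That order changed with the fit. With upper-quartile scaling JUNB had a smaller absolute change than DUSP1 (-3.8e-05 against 0.053). With 3 intronless genes of a single family, no test of intron content was made. The make-up of the JUN family was similar in all libraries, with JUN at 62.4% to 67.9%, JUND at 27.0% to 32.6% and JUNB at 4.08% to 5.98% of the family's TPM. The JUNB share lay apart, at 5.06%, 5.39% and 4.08% in control and 5.68%, 5.39% and 5.98% in PRPF39 shRNA replicates 1, 2 and 3, by a margin of 5.391% against 5.392% between the replicates numbered 2.

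**Figure D3:**
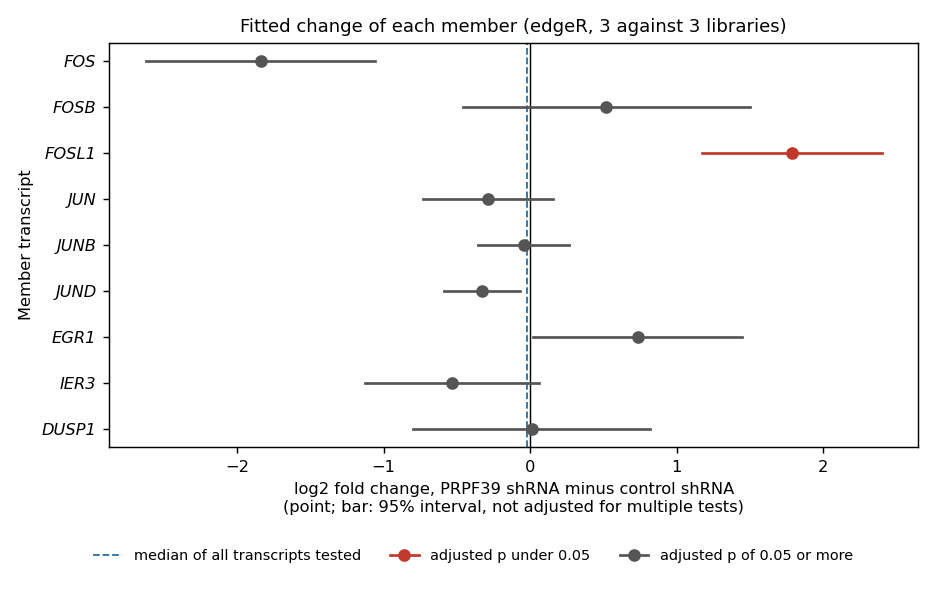
Fitted log2 fold change (horizontal axis, PRPF39 shRNA minus control shRNA) of each member, with its 95% interval, from edgeR over 3 against 3 libraries; red marks an adjusted p under 0.05, and the dashed line is the median of all transcripts tested. FOS at -1.84 and FOSL1 at 1.79 stand farthest from 0, and the intervals of JUN, JUNB, FOSB, IER3 and DUSP1 include 0.

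EGR1 encodes a zinc finger transcription factor induced through serum response factor and ERK signalling. Its transcript (ENST00000239938, 3138 bases) was at 3.45, 1.68 and 2.22 TPM in control replicates 1, 2 and 3 and at 2.66, 5.16 and 4.42 TPM in PRPF39 shRNA replicates 1, 2 and 3. The groups overlapped, because control replicate 1 was above PRPF39 shRNA replicate 1. Its fitted log2 change was 0.73 ± 0.30 (SE; 95% interval 0.02 to 1.45), and it did not pass (edgeR adjusted p = 0.299). The fold changes of EGR1 and FOS had opposite signs, and neither passed the test over all transcripts. A part of ERK signalling in either was not tested.

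IER3, a short stress-induced gene tied to survival and ERK signalling, was lower in mean level with PRPF39 shRNA. Its transcript (ENST00000259874, 1244 bases) was at 13.3, 18.6 and 18.1 TPM in control replicates 1, 2 and 3 and at 8.91, 13.6 and 13.2 TPM in PRPF39 shRNA replicates 1, 2 and 3. Only control replicate 1 reached down into the PRPF39 shRNA values. The fit gave a log2 change of -0.53 ± 0.25 (SE; 95% interval -1.13 to 0.06, edgeR adjusted p = 0.360).

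DUSP1 encodes a nuclear phosphatase that switches off MAP kinases and so acts as feedback on the signals that induce the other members. Its transcript (ENST00000239223, 2019 bases) was at 47.3, 61.7 and 89.0 TPM in control replicates 1, 2 and 3 and at 48.2, 94.5 and 62.9 TPM in PRPF39 shRNA replicates 1, 2 and 3. It spread over almost the same range in both groups, with means of 66.0 ± 21.2 and 68.6 ± 23.7 TPM (SD, n = 3 each). The log2 change was 0.01 ± 0.34 (SE, edgeR adjusted p = 0.993). Its 95% interval, not adjusted for multiple tests, ran from -0.80 to 0.82.

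In control libraries the order of mean TPM was JUN, JUND, DUSP1, IER3, JUNB, FOS, EGR1, FOSL1 and FOSB. JUND and DUSP1 overlapped, as did JUNB and FOS, and the other neighbours were apart in all 3 libraries. With PRPF39 shRNA the order was JUN, DUSP1, JUND, IER3, JUNB, EGR1, FOSL1, FOS and FOSB. There DUSP1 and JUND overlapped, IER3 and JUNB overlapped, and EGR1, FOSL1 and FOS formed a run of overlapping neighbours. FOS thus went from the sixth to the eighth place, and FOSL1 from the eighth to the seventh. In replicates 1, 2 and 3 the JUN family summed to 215, 213 and 277 TPM in control. It summed to 176, 219 and 198 TPM with PRPF39 shRNA. Of the summed TPM of the FOS and JUN family members, FOS family members made up 3.67% to 5.996% in control. With PRPF39 shRNA they made up 2.72% to 4.21%.

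Within the PRPF39 shRNA group the members moved together from library to library. Replicate 1 had the lowest TPM of the group for all 9 members and replicate 2 the highest for 8, the exception being JUNB. Over all transcripts tested, replicate 1 was lowest in 35.4% and replicate 2 highest in 29.7%. In CPM, replicate 1 was lowest and replicate 2 highest for all 9, against 35.4% and 35.0% of all transcripts tested. Replicate 2 was the shallowest of the 6 libraries, with 113747941 estimated reads, and replicate 1 held 191602680. The part of depth in this order was not tested. In the controls the order was less uniform. Control replicate 1 was lowest in TPM for 5 members, against 20.7% of all transcripts tested, replicate 2 for 3, against 45.9%, and replicate 3 for 1, against 33.4%. In CPM control replicate 1 was lowest for 6 members, against 33.1%. Despite this spread, FOS was below every control even in PRPF39 shRNA replicate 2 and FOSL1 above every control even in replicate 1.

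Over the 9 members, 4 had positive and 5 negative log2 changes, with a median of -0.04 beside -0.02 over all transcripts tested. At an unadjusted p under 0.05, FOS, FOSL1, JUND and EGR1 were counted, 4 of 9, where 16.1% of all transcripts were (edgeR). In edgeR on transcripts of at least 5 CPM the count was 3 of 7 members, where 7269 of 20216 transcripts were. Those 3 were FOS, JUND and IER3 (unadjusted p = 0.0400 for IER3, edgeR), and EGR1 was not among them (0.0528). In CPM the groups did not overlap for FOS, FOSL1 and JUND, 3 of 9, where 25.3% of all transcripts did not, a count near the background. Among transcripts averaging at least 5 CPM, which FOSL1 does not reach, 41.0% did not. At an adjusted p under 0.05 the count was 1 of 9, FOSL1, where 0.904% of all transcripts were called in either direction.

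Libraries held 113747941 to 246491084 estimated reads, and each member had at least 213 in every library. The estimates of JUN, JUNB, EGR1 and DUSP1 were exactly whole, with no tolerance, at the 3 decimals of the files in all 6 libraries, as were those of 3.38% of the 71137 transcripts with at least 10 reads in each. Those of FOS, FOSB, FOSL1, JUND and IER3 were not whole, as arises when the quantifier divides reads between transcripts. Whether other transcripts of the same genes moved with these members was not analysed here. Effective lengths of a member differed between libraries by 1.28% (JUN) to 3.19% (JUND), far less than the differences of FOS and FOSL1. Effective length relative to transcript length ran from 0.932 (FOS) to 1.39 (JUNB), and the order of different genes in TPM rests on it. The level of PRPF39 itself, HEK293 marker genes and other genes of the AP-1 and ERK pathways were not analysed here, because their transcript IDs were not paired with names in the sources used. The group labels were therefore not checked against the targeted gene.

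**Figure D4:**
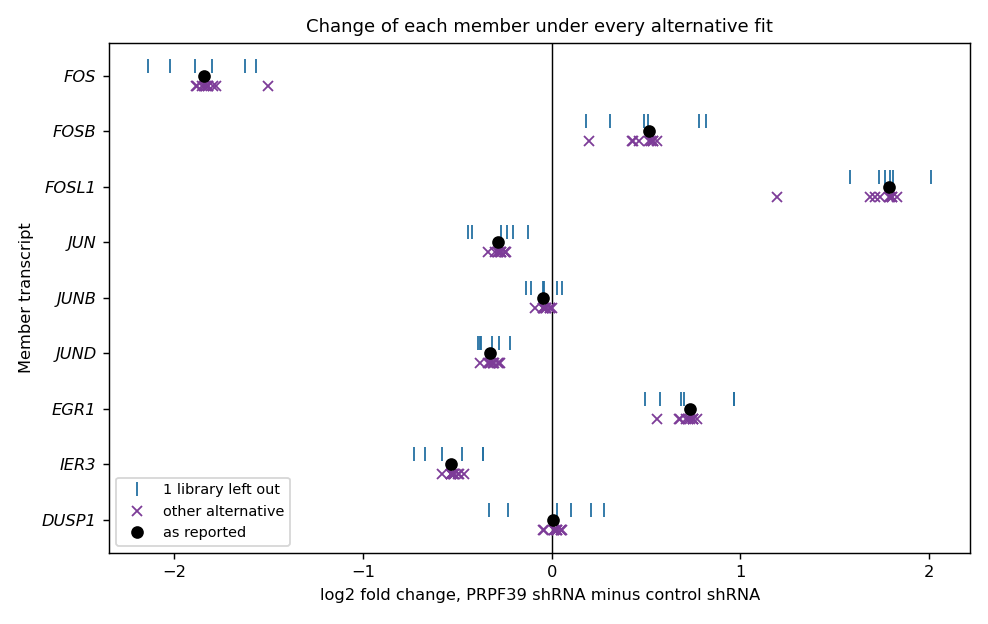
Log2 fold change (horizontal axis, PRPF39 shRNA minus control shRNA) of each member as reported (black), with 1 library left out (blue ticks) and under the other alternatives (purple crosses). FOS stays between -2.14 and -1.501 and FOSL1 between 1.19 and 2.01, while the values of JUNB and DUSP1 fall on both sides of 0.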

How the data were processed

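RNA of 6 HEK293 samples was sequenced, 3 with control shRNA and 3 with PRPF39 shRNA, grouped by their titles. The authors deposited estimated counts per transcript, unscaled, and TPM values that use each library's own effective lengths, per the file headers. The submitters' processing notes name DESeq2 1.32.0, Salmon 0.11.1, STAR 2.7.9a and cutadapt 2.1, and the genome build hg38. Their options and the annotation release are not given in the sources used here.

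Estimated counts were rounded and tested with edgeR 4.0.16 (R 4.3.3) on all transcripts: filterByExpr by group with a minimum count of 10 (97571 of 203028 kept), TMM scaling, then a quasi-likelihood test of the group term alone. Calls needed a Benjamini-Hochberg adjusted p below 0.05. CPM are counts scaled by TMM library size. The SE is the log2 change over the square root of F. All 9 members passed the filter and all were named. The members and gene lists were chosen with earlier results of these data known. The symbols of the 9 IDs were given with the member list. The fit was tested on simulated data. Alternatives used limma 3.58.1 (voom, or log2 of TPM plus 1 or 0.1), DESeq2 1.42.0, other scalings and filters, effective-length offsets, a replicate block and each library left out. Upstream sequences and loci came from RefSeq GRCh38.p14. The smallest chi-square per degree of freedom between libraries of a group was 31.8, so none was taken as a duplicate.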

Additional observations from a re-analysis of the deposited data

How the results depend on the processing

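The 432 higher and 450 lower calls over all transcripts stayed within 1.5 times with limma-voom, limma on log2 TPM with either pseudocount, RLE or upper-quartile scaling, offsets from effective lengths, and no filter beyond 1 read. They were 1730 and 1845 at a mean of at least 5 CPM, 4898 and 4126 with DESeq2, 0 and 0 with the replicate block (14264 at an unadjusted p under 0.05, edgeR), and 0 to 14 and 0 to 12 with 1 library left out. Members called higher were 1 as reported and 0 at 5 CPM (FOSL1 falls below that filter, as does FOSB), with limma-voom (FOSL1 adjusted p = 0.0506), with the replicate block (FOSL1 adjusted p = 0.188, edgeR) and in each of the 6 fits without 1 library, a range of 0 to 0. Members called lower were 0 as reported and 1, FOS, at 5 CPM (adjusted p = 0.00902, edgeR), with DESeq2 (1.15e-06), with limma-voom (0.0496) and with limma on log2(TPM + 1) (0.0285) and log2(TPM + 0.1) (0.0328). FOS met the 5 CPM filter only through the control group, averaging 16.8 CPM there and 4.70 CPM with PRPF39 shRNA. The pseudocounts narrow the changes of low transcripts, and FOSL1 was at 1.19 with a pseudocount of 1. The sign turned for DUSP1 at 5 CPM (-0.046), with limma-voom (-0.041), without control replicate 1 (-0.23) and without PRPF39 shRNA replicate 2 (-0.33), and for JUNB without control replicate 2 (0.055) and without PRPF39 shRNA replicate 1 (0.026). With 1 library left out DUSP1 ran from -0.33 to 0.28 and JUNB from -0.136 to 0.055. The cause was not tested. The signs of the other 7 held in every alternative that gave a value. Replicate numbers were not taken as pairs: no label ties a number to a batch, and deviations of same-numbered libraries correlated at 0.158, 0.0312 and 4.17e-05. Not every library correlated best with its own number. Fits without 1 library leave 2 against 3.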
